A study of Mus musculus with 6 samples.

Results

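Collagens are the main structural proteins of the extracellular matrix, and the genes described here are the 40 of 21572 symbols in the deposited tables whose name is Col, a number, the letter a and a number. By class they were 11 fibrillar, 6 basement membrane network (type IV), 9 FACIT (fibril-associated collagens with interrupted triple helices), 4 beaded filament (type VI), 2 multiplexin, 4 transmembrane and 4 short-chain, anchoring or other genes. RNA with a poly(A) tail was sequenced from whole soleus, a slow hindlimb muscle, of adult C57BL/6 mice. Each of 3 groups had 2 libraries: soleus denervated for 3 days in mice labelled Dach2-/-/Hdac9-/- (DKO-labelled below), soleus denervated for 3 days in WT mice, and innervated soleus of WT mice. The design asks which genes differ when Dach2 and Hdac9, 2 transcriptional regulators, are deleted. How the alleles were made and how the muscle was denervated is not given in the sources used here, and innervated DKO-labelled muscle was not analysed here.

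A collagen molecule is a triple helix of chains that are each encoded by their own gene. Types I, III and V assemble into the fibrils of the sheaths around muscle fibres, and FACIT collagens sit on the surface of such fibrils. Type IV forms the network of the basement membrane around each fibre and capillary, type VI links that membrane to the fibrils, and multiplexins sit in the basement membrane zone. Transmembrane collagens stay in the plasma membrane of the cell that makes them, and some of them are known for roles at the nerve-muscle contact. In muscle, fibroblast-like cells are the main source of fibrillar collagen mRNA, whereas endothelial and other cells add type IV.

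The libraries held 32380082 and 30510780 fragments in the DKO-labelled group, 46305449 and 30489977 in the denervated WT group, and 31671100 and 25529434 in the innervated WT group. The first libraries of the groups carry the sample numbers 14043 to 14045 and the second ones 14049 to 14051, so the libraries form 2 runs of consecutive numbers with 1 library of each group in each. The labels do not say that the libraries come from separate animals, so p-values reflect how far these libraries differ, and that spread may be technical only. Denervated WT replicate 2 stood apart at 43.3 on the second principal component (13% of the variance), with the other libraries between -27.9 and 8.82. Dach2 was at 0.961 and 0.681 FPKM (fragments scaled for transcript length and, by the authors' factor, for library) in DKO-labelled, 0.519 and 0.536 FPKM in denervated WT and 3.85 and 4.29 FPKM in innervated WT libraries. Hdac9 was at 0.534 and 0.181, 1.83 and 0.285, and 4.10 and 3.14 FPKM in the same order. Whole-gene values include exons outside a deleted part and do not check the deletion. Of the soleus fibre markers, Myh7, Myh2, Ckm, Tnnt1, Tnnc1 and Myl2 were at 106 FPKM or more in every library, while Acta1 was listed at 0 in all 6, so a 0 in these tables is not read as absence.

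Collagen mRNA made up 0.2% and 0.0982% of fragments in DKO-labelled, 0.211% and 0.0503% in denervated WT, and 0.324% and 0.207% in innervated WT libraries. The summed level of the 40 genes was 226 and 110 FPKM in DKO-labelled, 254 and 57.4 FPKM in denervated WT, and 494 and 337 FPKM in innervated WT muscle. In summed FPKM every denervated library lay below both innervated WT libraries, whereas by share of fragments denervated WT replicate 1 lay above innervated WT replicate 2. The lowest total on both measures was that of denervated WT replicate 2. These are bulk samples, in which fewer cells of a type and less RNA per cell cannot be told apart. Fibrillar genes gave most of the FPKM total in 5 of 6 libraries, at 65.1% and 55.2% in DKO-labelled, 66.7% and 45.9% in denervated WT, and 70.4% and 58.3% in innervated WT muscle. Col3a1 was the highest of the 40 genes in 5 libraries, whereas in denervated WT replicate 2 Col4a1 came first at 8.20 FPKM and Col1a2 and Col3a1 followed at 7.41 and 6.93 FPKM. The transmembrane class moved the other way, with 4.77% and 15.5% of the collagen FPKM in DKO-labelled and 5.42% and 9.75% in denervated WT libraries, against 0.407% and 0.649% in innervated WT libraries.

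**Figure D1:**
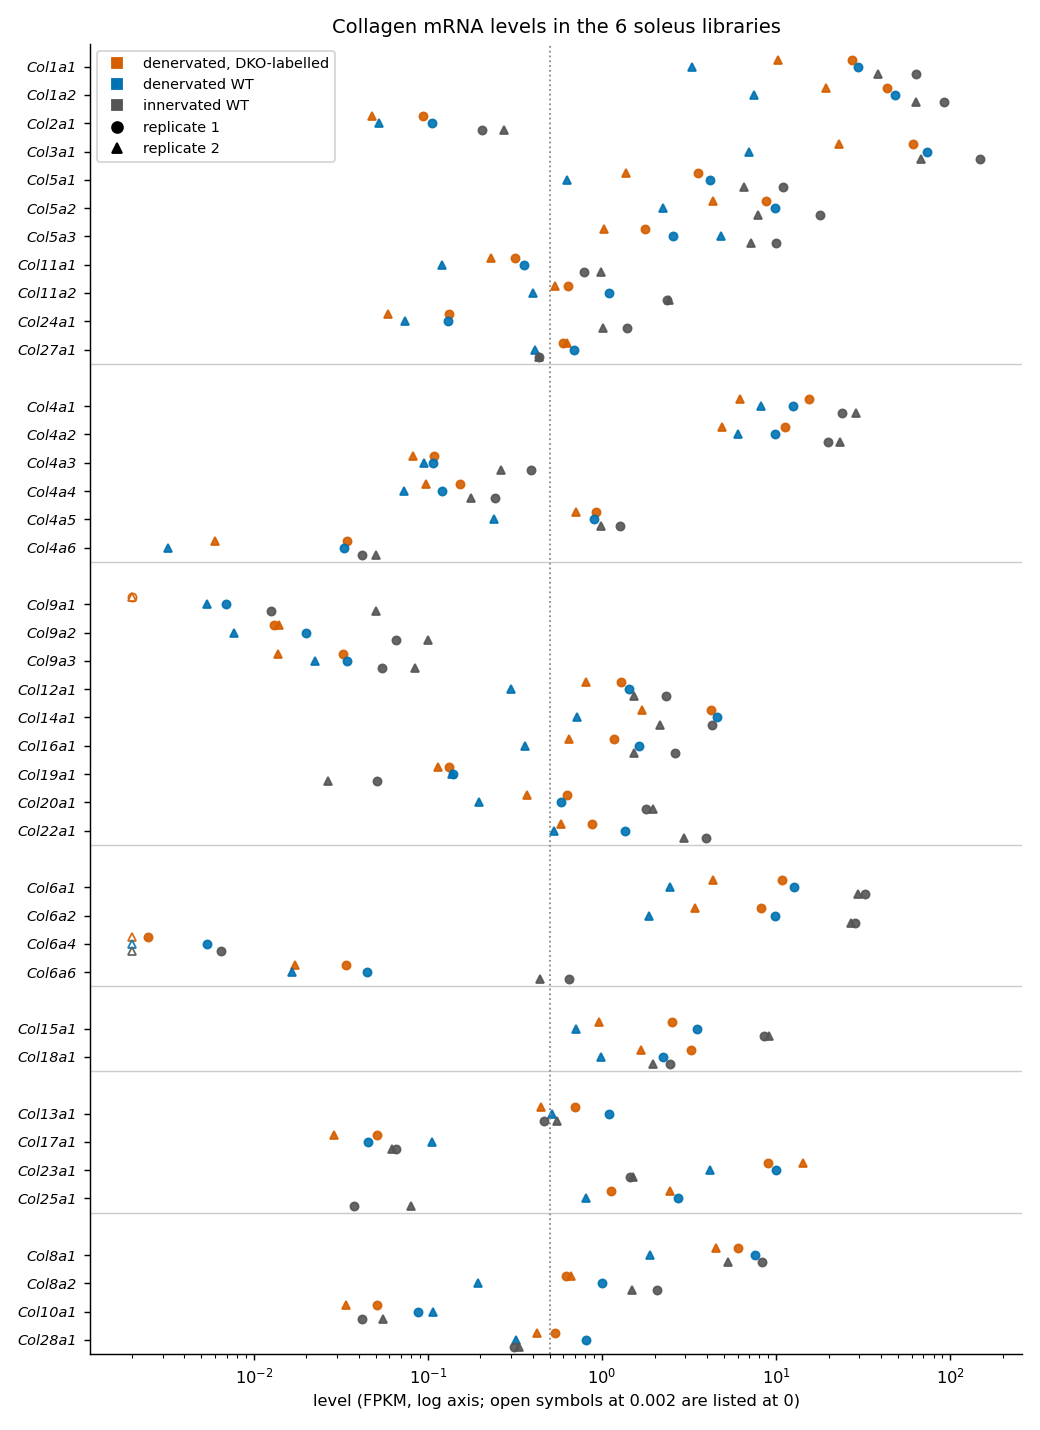
Level of each of the 40 collagen genes (rows, grouped by class in the order fibrillar, basement membrane network, FACIT, beaded filament, multiplexin, transmembrane and short-chain or other) in FPKM on a log axis, with 1 symbol per library, circles for replicate 1 and triangles for replicate 2; the dotted line marks 0.5 FPKM, and open symbols drawn at 0.002 stand for genes listed at 0. Blue triangles (denervated WT replicate 2) lie left of blue circles for most fibrillar genes, and Col23a1 and Col25a1 lie right of innervated WT in all 4 denervated libraries.

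**Figure D2:**
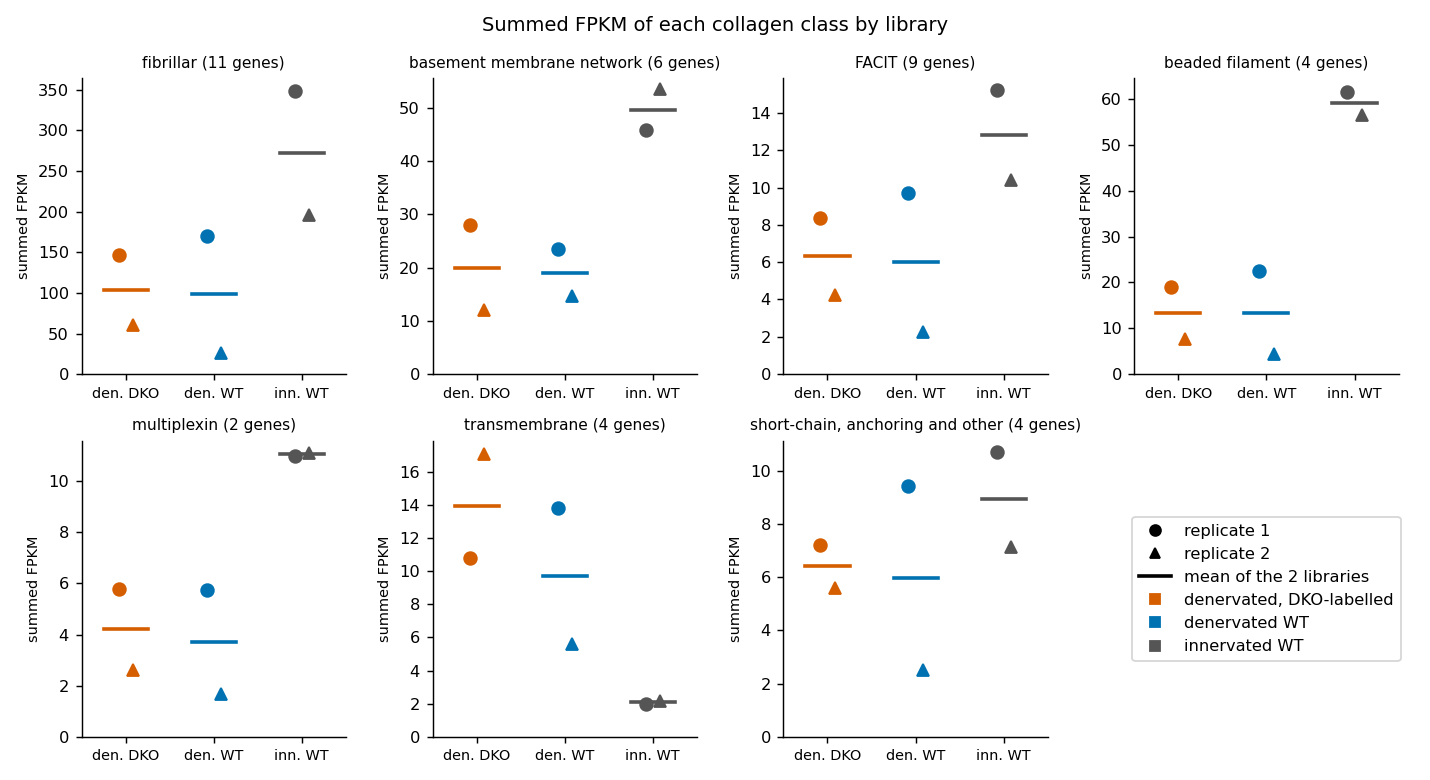
Summed FPKM of each collagen class in the 6 libraries, with denervated DKO-labelled (den. DKO) on the left, denervated WT (den. WT) in the middle and innervated WT (inn. WT) on the right; circles are replicate 1, triangles replicate 2 and bars the mean of the 2 libraries. The transmembrane class is higher in all denervated libraries (5.60 to 17.1 FPKM) than in innervated WT (2.01 and 2.19 FPKM), while the fibrillar, type IV, FACIT, beaded filament and multiplexin sums are lower.

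Denervated WT was then compared with innervated WT soleus. Col23a1 and Col25a1, which encode transmembrane collagens, rose 5.09-fold and 31.7-fold, while the fibrillar gene Col11a2 and the FACIT genes Col20a1 and Col22a1 fell 2.87-fold, 4.40-fold and 3.39-fold. Types I, III, IV and VI, the abundant collagens, had negative log2 changes that did not pass the test in the main fit (all 6 libraries, no term for the run of sample numbers). Fragment counts were fitted with edgeR over the 12247 genes that averaged at least 0.5 FPKM across the 6 libraries, and a gene was called where its adjusted p (Benjamini-Hochberg) was under 0.05. Among collagens 25 passed that filter, and of these 2 were called higher and 3 lower, where 14.4% of all genes tested were called higher and 14.3% lower. Counted by libraries, 15 of the 25 were lower in both denervated WT libraries than in both innervated WT libraries and 2 were higher, beside 38.5% of all genes tested lower and 32.7% higher. The log2 change was negative for 21 of the 25, with a median of -1.24, against 0.0022 over all genes tested. Unadjusted p was under 0.05 for 11 of the 25 in edgeR, beside 5374 of the 12247 genes tested. Col25a1 passed the filter through the denervated groups, with a mean of 0.0587 FPKM in innervated WT, and Col20a1 through innervated WT, with means of 0.498 FPKM in DKO-labelled and 0.388 FPKM in denervated WT muscle. A gene that passes in this way has to differ between groups, so these 2 calls are given as a description of the genes.

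Denervated DKO-labelled against innervated WT soleus differs in genotype and treatment together and shares its innervated libraries with the comparison above. Col23a1 and Col25a1 were again called higher, and Col5a3, Col11a2, Col20a1 and Col22a1 lower, so 2 and 4 of the 25 were called, where 15.2% of all genes tested were called higher and 16.2% lower. Both DKO-labelled libraries lay below both innervated WT libraries for 17 of the 25 and above them for 3, beside 40.9% and 36.4% of all genes tested. The log2 change was negative for 20 of the 25, with a median of -1.21 (0.0090 over all genes tested).

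These counts depend on single libraries, and so do the calls over all genes tested. The share of all genes called lower fell without either innervated library and rose without denervated WT replicate 1. Such moves were therefore not limited to collagens, although without that library the share of collagens called lower rose by more. Without innervated WT replicate 1 no collagen was called in either comparison, and without innervated WT replicate 2 none was called in denervated WT and Col5a3 alone in DKO-labelled muscle. Without denervated WT replicate 1, whose collagen total was nearer to innervated WT, denervated WT had log2 changes of -3.84 (Col1a1), -1.57 (Col4a1) and -3.56 (Col6a1). Without denervated WT replicate 2, the library that stood apart, they were -0.68, -0.97 and -1.2. The median over all genes tested was -0.054 and 0.0083 in these 2 fits. In DKO-labelled against innervated WT muscle, Col1a1 was at -2.12 without DKO-labelled replicate 1 and -0.72 without DKO-labelled replicate 2. The medians over all genes tested were then -0.012 and 0.0094.

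The run of sample numbers also moved the calls. Deviations of same-run libraries from their group means correlated across genes at 0.43, 0.14 and 0.21 in the 3 pairs of groups, although the labels do not say that a run marks a shared day or batch. With the run as a replicate block, denervated WT had 2 collagens called higher and 15 lower, which included Col1a1, Col1a2 and Col3a1 (edgeR adjusted p = 0.0304, 0.0304 and 0.038), Col4a1 and Col4a2 (edgeR adjusted p = 0.0305 and 0.0207) and Col6a1 and Col6a2 (edgeR adjusted p = 0.0157 and 0.0145). Col5a1, Col5a2, Col12a1, Col15a1 and Col16a1 were also called lower there. DKO-labelled muscle had 2 higher and 11 lower with the block, with Col5a1, Col5a2 and Col15a1 called in addition to Col4a1, Col4a2, Col6a1 and Col6a2 (edgeR adjusted p = 0.0335, 0.0213, 0.0179 and 0.0158 for these 4) and Col1a1, Col1a2 and Col3a1 not called (edgeR adjusted p = 0.0729, 0.0652 and 0.0886). Among all 12247 genes, the shares called lower with the block were 20.1% (DKO-labelled) and 19.0% (denervated WT).

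**Figure D3:**
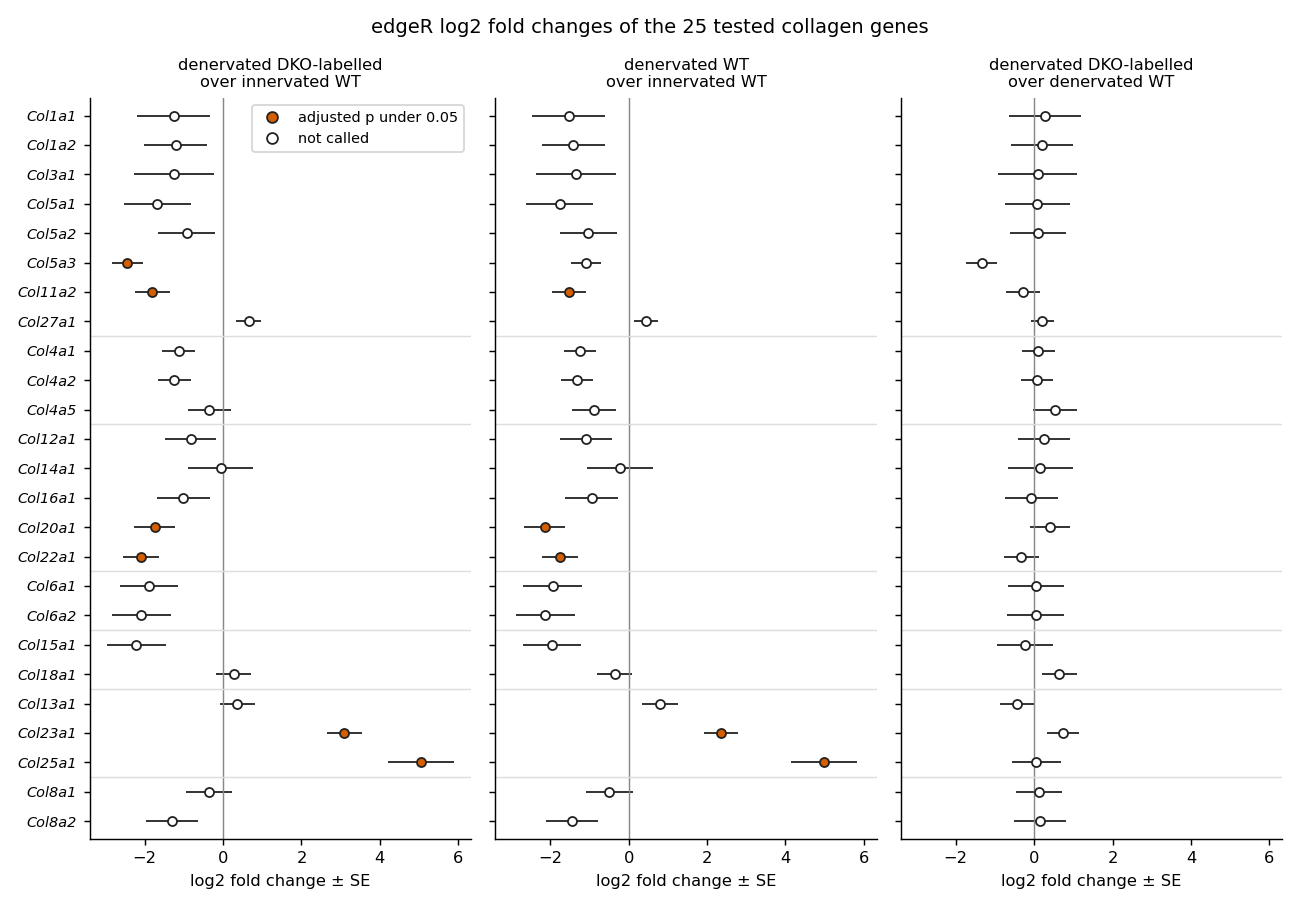
edgeR log2 fold changes with their standard errors (bars) for the 25 tested collagen genes, grouped by class from fibrillar at the top to short-chain at the bottom, for DKO-labelled over innervated WT, denervated WT over innervated WT, and DKO-labelled over denervated WT. Filled symbols have an adjusted p under 0.05: 6 genes in the first panel, 5 in the second and 0 in the third.

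Among fibrillar collagens, 8 of 11 genes were tested. In denervated WT 1 was called lower and 7 were not called, with a median log2 change of -1.38, and in DKO-labelled muscle 2 were called lower and 6 were not called, with a median of -1.26. Among all 12247 genes, the shares called lower were 16.2% (DKO-labelled) and 14.3% (denervated WT). Col1a1 (chr11:94797583-94813170 on mm9, as are all gene coordinates here) encodes the alpha 1 chain of type I, the main fibril collagen. It was at 27.1 and 10.2 FPKM in DKO-labelled, 29.3 and 3.28 FPKM in denervated WT and 63.4 and 38.6 FPKM in innervated WT libraries. Col1a2 (chr6:4455696-4491543), the other type I chain, was at 43.1 and 19.4, 47.9 and 7.41, and 91.7 and 63.5 FPKM in the same order. For both genes all denervated libraries lay below both innervated ones, and the denervated WT libraries were farther apart than those of any other group. Col3a1 (chr1:45368382-45406551), the type III chain of reticular fibres, was at 61.3 and 23.0 FPKM in DKO-labelled, 73.6 and 6.93 FPKM in denervated WT and 148 and 67.7 FPKM in innervated WT libraries, so denervated WT replicate 1 lay above innervated WT replicate 2.

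None of these genes was called in the main edgeR fit. With only the 4 libraries compared and no block, edgeR called Col1a2 lower in DKO-labelled muscle (adjusted p = 0.0455). The log2 changes were -1.26 ± 0.93 for Col1a1, -1.21 ± 0.80 for Col1a2 and -1.25 ± 1.01 for Col3a1 (SE; edgeR adjusted p = 0.334, 0.284 and 0.377) in DKO-labelled muscle. In denervated WT they were -1.53 ± 0.94, -1.41 ± 0.80 and -1.34 ± 1.01 (edgeR adjusted p = 0.253, 0.221 and 0.346). Within runs of sample numbers, denervated over innervated WT was -1.0 (first run) and -3.42 (second run) for Col1a1, and -0.93 and -3.18 for Col3a1. Leaving out denervated WT replicate 1 made Col1a1 pass at -3.84 (edgeR adjusted p = 0.00822) and Col3a1 at -3.88 (edgeR adjusted p = 0.012), while leaving out replicate 2 gave -0.68 and -0.47 (edgeR adjusted p = 0.428 and 0.637). The ratios between chains ranged less widely, with Col1a2 at 1.45 to 2.26 times and Col3a1 at 1.75 to 2.51 times the FPKM of Col1a1 over the 6 libraries.

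Type V and XI chains join the core of type I fibrils and limit their width. Col5a3 (chr9:20574493-20619478) was at 1.76 and 1.03 FPKM in DKO-labelled, 2.57 and 4.81 FPKM in denervated WT and 9.92 and 7.20 FPKM in innervated WT libraries. The 3 groups did not overlap, and Col5a3 was the 1 tested fibrillar gene that was higher in replicate 2 than in replicate 1 of denervated WT. It fell in DKO-labelled muscle, at -2.44 ± 0.40 (edgeR adjusted p = 0.00743), and had -1.09 ± 0.38 in denervated WT (edgeR adjusted p = 0.073). The DKO-labelled call was lost without innervated WT replicate 1 (-2.18, edgeR adjusted p = 0.0554) or without DKO-labelled replicate 2 (-2.11, edgeR adjusted p = 0.0526), and denervated WT passed without its replicate 2 (-1.62, edgeR adjusted p = 0.0271). Col11a2 (chr17:34176381-34203187), a type XI chain best known from cartilage, was at 0.641 and 0.538 FPKM in DKO-labelled, 1.10 and 0.403 FPKM in denervated WT and 2.35 and 2.41 FPKM in innervated WT libraries. It fell by 1.8 on the log2 scale in DKO-labelled muscle (edgeR adjusted p = 0.0264) and by 1.52 in denervated WT (edgeR adjusted p = 0.0452), and both calls were lost when either innervated or either DKO-labelled library was left out, with adjusted p values of 0.074 to 0.174. Cartilage markers besides Sox9 were below the filter, so only Sox9 of 6 was tested, and their summed level was 1.34 and 1.22, 1.46 and 0.929, and 1.27 and 1.31 FPKM across DKO-labelled, denervated WT and innervated WT libraries.

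Col5a2 (chr1:45431175-45560127) was at 8.71 and 4.31 FPKM in DKO-labelled, 9.84 and 2.24 FPKM in denervated WT and 17.9 and 7.82 FPKM in innervated WT libraries, and the groups overlapped. Its partner Col5a1 had 3.54 and 1.38, 4.18 and 0.631, and 11 and 6.49 FPKM, and the ratio of Col5a2 to Col5a1 ran from 1.21 in innervated WT to 3.55 in denervated WT. Col27a1 was the 1 tested fibrillar gene with positive log2 changes, at 0.65 ± 0.31 in DKO-labelled and 0.45 ± 0.30 in denervated WT muscle (edgeR adjusted p = 0.146 and 0.300). Below the filter, Col2a1, the cartilage fibril chain, lay between 0.0475 and 0.274 FPKM, and Col11a1 between 0.120 and 0.981 FPKM. Col24a1 missed the filter most narrowly, with 0.132 and 0.0588 FPKM in DKO-labelled, 0.130 and 0.0737 FPKM in denervated WT and 1.39 and 1.01 FPKM in innervated WT libraries.

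The basement membrane class turned on Col4a1 and Col4a2, whose chains form the common type IV network. Col4a1 (chr8:11198422-11312826) was at 15.5 and 6.19 FPKM in DKO-labelled, 12.5 and 8.20 FPKM in denervated WT and 24.0 and 28.6 FPKM in innervated WT libraries. Col4a2 (chr8:11312828-11449287) was at 11.2 and 4.90 FPKM in DKO-labelled, 9.90 and 6.02 FPKM in denervated WT and 19.8 and 23.3 FPKM in innervated WT libraries. All 4 denervated libraries lay below both innervated ones for both genes, and the ratio of Col4a1 to Col4a2 stayed between 1.21 and 1.38. In the main fit the log2 changes did not pass the test, at -1.13 ± 0.42 for Col4a1 and -1.24 ± 0.41 for Col4a2 in DKO-labelled muscle (edgeR adjusted p = 0.0855 and 0.0599). In denervated WT they were -1.24 ± 0.42 and -1.31 ± 0.41 (edgeR adjusted p = 0.0701 and 0.0541). Col4a2 passed in 10 of 15 alternative settings in each comparison, with adjusted p values from 0.0083 to 0.224 in DKO-labelled and from 0.0058 to 0.212 in denervated WT muscle. Leaving out denervated WT replicate 1 made it pass in both (edgeR adjusted p = 0.0339 and 0.0302), as did leaving out DKO-labelled replicate 1 (edgeR adjusted p = 0.0265 and 0.0282). It also passed in DKO-labelled muscle without denervated WT replicate 2 (edgeR adjusted p = 0.0341) and in denervated WT without DKO-labelled replicate 2 (edgeR adjusted p = 0.0285). Col4a1 passed in both without DKO-labelled replicate 1 (edgeR adjusted p = 0.023 and 0.0262) and in denervated WT without DKO-labelled replicate 2 (edgeR adjusted p = 0.0266).

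Col4a1 and Col4a2 are neighbours whose listed loci end and start 2 bases apart on opposite strands, so their RefSeq promoter windows, each from 250 bases before to 50 after the start, share 78 bases. The windows are shown because the levels of the pair moved together. Each is written 5′ to 3′ on its gene's strand, from RefSeq on GRCm38.p6, and capitals mark every match to CCAAT or to GGGCGG on either strand.
Col4a1, chr8:11312777-11313076, minus strand: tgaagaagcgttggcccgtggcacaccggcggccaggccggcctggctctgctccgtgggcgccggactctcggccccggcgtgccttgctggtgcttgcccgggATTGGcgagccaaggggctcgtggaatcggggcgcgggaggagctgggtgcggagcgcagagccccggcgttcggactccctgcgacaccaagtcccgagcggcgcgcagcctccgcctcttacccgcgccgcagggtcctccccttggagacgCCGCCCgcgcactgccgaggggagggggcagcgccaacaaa
Col4a2, chr8:11312555-11312854, plus strand: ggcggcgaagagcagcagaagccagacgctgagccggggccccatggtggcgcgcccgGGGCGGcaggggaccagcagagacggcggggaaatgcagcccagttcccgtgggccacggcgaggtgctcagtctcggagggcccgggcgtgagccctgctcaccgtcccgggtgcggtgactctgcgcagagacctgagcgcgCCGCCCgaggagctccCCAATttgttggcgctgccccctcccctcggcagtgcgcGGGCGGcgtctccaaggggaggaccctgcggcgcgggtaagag

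The Col4a1 window held 1 match to CCAAT and 1 to GGGCGG, and the Col4a2 window 1 and 3. GC content was 74.0% and 73.7%, against a median of 52.7% over the 32851 RefSeq windows of the same length. Neither held the E-box CANNTG, the TATA motif TATAAA or the AP-1 motif TGANTCA. Matches to CCAAT were in 37.4% of all windows and in 12 of the 35 windows of the 32 collagen genes in the table, and matches to GGGCGG in 35.7% and in 21 of 35. The other motifs were in 72.3% (CANNTG), 13.6% (TATAAA) and 7.81% (TGANTCA) of all windows and in 19, 5 and 1 of the 35. These are matches of letters and were not related to the levels.

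Of the other type IV chains, Col4a5, which forms a separate network best known from kidney, was the third one tested. It lay at 0.919 and 0.711, 0.893 and 0.239, and 1.26 and 0.989 FPKM across DKO-labelled, denervated WT and innervated WT libraries, with log2 changes of -0.35 ± 0.55 and -0.89 ± 0.56 against innervated WT (edgeR adjusted p = 0.658 and 0.265). Col4a3 and Col4a4 lay between 0.0731 and 0.392 FPKM and Col4a6 between 0.0032 and 0.0504 FPKM. None of the 3 tested type IV genes was called in the main fit, and all 3 were lower in both libraries of each denervated group than in innervated WT. Of 13 tested genes for other basement membrane proteins, 0 were called higher and 4 lower in DKO-labelled muscle, and 1 higher and 4 lower in denervated WT, beside the same 16.2% and 14.3% of all genes tested called lower. Lamb3, Lama2, Lamb1 and Nid1, for 3 laminin chains and nidogen, fell by 2.28, 0.97, 1.56 and 1.79 in DKO-labelled and by 2.31, 0.59, 1.75 and 1.61 in denervated WT muscle on the log2 scale, while the laminin gene Lama5 rose by 0.81 in denervated WT (edgeR).

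Neither of the 2 tested type VI genes was called in the main fit, and both lay lower in every denervated library than in innervated WT. Without a filter on FPKM both were called lower in each denervated group in edgeR, and limma called Col6a2 lower in denervated WT. Col6a1 (chr10:76171536-76188789) and Col6a2 (chr10:76058500-76086149) encode chains of the beaded filaments around muscle fibres, and mutations in the human genes cause muscle disease. Col6a1 was at 10.8 and 4.33 FPKM in DKO-labelled, 12.6 and 2.45 FPKM in denervated WT and 32.5 and 29.3 FPKM in innervated WT libraries. Col6a2 was at 8.14 and 3.40 FPKM in DKO-labelled, 9.83 and 1.86 FPKM in denervated WT and 28.5 and 26.8 FPKM in innervated WT libraries. No denervated library of either gene reached an innervated one, and the innervated libraries differed 1.11-fold for Col6a1 and 1.06-fold for Col6a2. The log2 changes of Col6a1 were -1.89 ± 0.74 in DKO-labelled and -1.94 ± 0.75 in denervated WT muscle (edgeR adjusted p = 0.098 and 0.0945). Those of Col6a2 were -2.09 ± 0.75 and -2.12 ± 0.75 (edgeR adjusted p = 0.0758 and 0.0752). Without denervated WT replicate 1, Col6a1 passed in both, at -1.89 (edgeR adjusted p = 0.0116) in DKO-labelled and -3.56 (edgeR adjusted p = 0.00585) in denervated WT muscle, and without denervated WT replicate 2 it passed in DKO-labelled muscle (edgeR adjusted p = 0.0116). The ratio of Col6a1 to Col6a2 stayed between 1.09 and 1.33. Col6a4 and Col6a6 were below the filter, with Col6a4 at 0 to 0.0065 FPKM. Col6a6 was at 0.0337 and 0.0172 FPKM in DKO-labelled, 0.0444 and 0.0165 FPKM in denervated WT and 0.649 and 0.439 FPKM in innervated WT libraries. Without a filter it was called lower in both denervated groups in edgeR, beside 12.4% (DKO-labelled) and 10.8% (denervated WT) of all genes.

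The multiplexin Col15a1, whose loss in mice harms muscle and capillaries, was at 2.53 and 0.963, 3.52 and 0.706, and 8.54 and 9.13 FPKM across DKO-labelled, denervated WT and innervated WT libraries. Its log2 changes were -2.21 ± 0.75 in DKO-labelled and -1.96 ± 0.74 in denervated WT muscle (edgeR adjusted p = 0.0658 and 0.0903). Col18a1, the other multiplexin and the source of endostatin, overlapped between groups at 3.25 and 1.67, 2.24 and 0.986, and 2.44 and 1.97 FPKM.

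In the FACIT class, 5 of 9 genes were tested, and 2 were called lower and 3 were not called in each denervated group, beside 16.2% of all genes tested called lower in DKO-labelled and 14.3% in denervated WT muscle. Col22a1 (chr15:71628905-71864657), known from tissue junctions such as that of muscle and tendon, was at 0.878 and 0.579 FPKM in DKO-labelled, 1.35 and 0.526 FPKM in denervated WT and 3.97 and 2.96 FPKM in innervated WT libraries. It fell by 2.09 in DKO-labelled and by 1.76 in denervated WT muscle on the log2 scale (edgeR adjusted p = 0.0187 and 0.0324). Col20a1 (chr2:180721239-180752245) was at 0.626 and 0.369 FPKM in DKO-labelled, 0.578 and 0.197 FPKM in denervated WT and 1.79 and 1.97 FPKM in innervated WT libraries, and the denervated group means lay under the filter. It fell by 1.74 and by 2.14 on the log2 scale (edgeR adjusted p = 0.0451 and 0.0274). For both genes all denervated libraries lay below both innervated ones.

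Leaving out either innervated library ended all 4 of these calls, with adjusted p values of 0.0742 to 0.178 in edgeR. Leaving out either DKO-labelled library ended both calls in DKO-labelled muscle (0.0558 to 0.218), and leaving out DKO-labelled replicate 2 put Col22a1 in denervated WT at the threshold (-1.76, edgeR adjusted p = 0.050). Col12a1 and Col16a1, found along fibrils of many tissues, had log2 changes of -0.83 and -1.01 in DKO-labelled and -1.09 and -0.94 in denervated WT muscle and were not called. Col14a1, prominent in tendon, overlapped between groups, with 4.23 and 1.69 FPKM in DKO-labelled, 4.55 and 0.722 FPKM in denervated WT and 4.28 and 2.14 FPKM in innervated WT libraries. Of the cartilage FACIT chains Col9a1, Col9a2 and Col9a3, none exceeded 0.0995 FPKM, and Col9a1 was listed at 0 in both DKO-labelled libraries. Col19a1 was at 0.132 and 0.114 FPKM in DKO-labelled, 0.139 and 0.137 FPKM in denervated WT and 0.0512 and 0.0266 FPKM in innervated WT libraries.

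In the main fit, transmembrane collagens held the called genes that were higher after denervation, 2 of 3 tested genes in each denervated group. Over all genes tested 15.2% were called higher in DKO-labelled and 14.4% in denervated WT muscle. Of the 2, Col25a1 passed the filter through the denervated groups where it was high, so its call is a description only. Col25a1 (chr3:129883795-130299335) is made by muscle and is required in mice for motor axons to innervate it. It was at 1.13 and 2.45 FPKM in DKO-labelled, 2.72 and 0.810 FPKM in denervated WT and 0.0376 and 0.0798 FPKM in innervated WT libraries, from 197 and 404, 641 and 123, and 5 and 8 fragments. Col23a1 (chr11:51103421-51397427), whose outer part can be shed from the cell surface, was at 8.91 and 14.2 FPKM in DKO-labelled, 9.93 and 4.16 FPKM in denervated WT and 1.44 and 1.5 FPKM in innervated WT libraries. Every denervated library was above both innervated ones for both genes. Among the 40 collagens Col23a1 ranked 7 and 3 in DKO-labelled, 6 in both denervated WT and 21 and 20 in innervated WT libraries.

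The log2 changes of Col25a1 were 5.05 ± 0.84 in DKO-labelled and 4.99 ± 0.84 in denervated WT muscle (edgeR adjusted p = 0.00787 and 0.00975). Those of Col23a1 were 3.09 ± 0.45 and 2.35 ± 0.44 (edgeR adjusted p = 0.00525 and 0.0126). The Col25a1 fold rests on those 5 and 8 fragments in innervated WT and depends on the prior count of the fit. Without innervated WT replicate 1 or 2 every one of these calls was lost, at adjusted p values of 0.0542 to 0.0989, while the log2 changes stayed between 2.33 and 3.11 for Col23a1 and between 4.51 and 5.63 for Col25a1. On log2(FPKM + 1), limma did not call Col25a1 in denervated WT (1.29, limma adjusted p = 0.053). Without denervated WT replicate 1 or 2, denervated WT gave 1.59 or 2.84 for Col23a1 and 3.86 or 5.61 for Col25a1, all of them called.

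The RefSeq promoter windows of both genes are shown, since these were the collagens called higher in the main fit. Capitals again mark CCAAT and GGGCGG on either strand of GRCm38.p6.
Col25a1, chr3:130180595-130180894, plus strand: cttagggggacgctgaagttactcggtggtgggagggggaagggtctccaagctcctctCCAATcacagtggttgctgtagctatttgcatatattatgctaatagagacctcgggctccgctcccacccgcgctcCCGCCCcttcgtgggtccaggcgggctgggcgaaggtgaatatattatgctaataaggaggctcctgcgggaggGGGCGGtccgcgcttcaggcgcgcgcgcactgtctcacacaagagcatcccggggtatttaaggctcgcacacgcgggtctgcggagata
Col23a1, chr11:51289670-51289969, plus strand: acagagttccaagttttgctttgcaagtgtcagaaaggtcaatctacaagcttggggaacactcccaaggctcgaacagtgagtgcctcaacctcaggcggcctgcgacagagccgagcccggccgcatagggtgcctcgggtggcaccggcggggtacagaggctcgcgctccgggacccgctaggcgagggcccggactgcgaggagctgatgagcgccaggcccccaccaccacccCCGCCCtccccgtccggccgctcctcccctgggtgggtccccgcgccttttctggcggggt

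The Col25a1 window held 1 match to CCAAT and 2 to GGGCGG, at 60.0% GC, and no CANNTG. The Col23a1 window held 1 match to GGGCGG and 1 to CANNTG and none to CCAAT, at 67.7% GC. Neither held TATAAA or TGANTCA, and no matches of different motifs overlapped in any of the windows shown. Of the other transmembrane genes, Col13a1, known for maturation of the neuromuscular junction, was at 0.701 and 0.446 FPKM in DKO-labelled, 1.10 and 0.518 FPKM in denervated WT and 0.464 and 0.549 FPKM in innervated WT libraries. Its groups overlapped and it was not called (edgeR log2 change 0.36 ± 0.45 and 0.80 ± 0.45, adjusted p = 0.572 and 0.214). Col17a1, a hemidesmosome collagen of epithelia, stayed between 0.0287 and 0.105 FPKM.

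In the last class 2 of 4 genes were tested and neither was called. Col8a1, a short-chain collagen of vessel walls, was at 6.00 and 4.48 FPKM in DKO-labelled, 7.53 and 1.88 FPKM in denervated WT and 8.32 and 5.29 FPKM in innervated WT libraries. Its partner Col8a2 had log2 changes of -1.30 ± 0.67 in DKO-labelled and -1.44 ± 0.67 in denervated WT muscle (edgeR adjusted p = 0.177 and 0.145). Col10a1, of hypertrophic cartilage, lay between 0.0337 and 0.107 FPKM and Col28a1, known from peripheral nerve, between 0.311 and 0.807 FPKM.

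The design's own comparison set denervated DKO-labelled against denervated WT soleus, and no collagen was called in edgeR. Over all genes tested 0.0245% were called higher and 0.0163% lower. The median log2 change of the 25 collagens was 0.10, against -0.02 over all genes tested, and the values ran from -1.34 for Col5a3 to 0.74 for Col23a1. Col5a3 was the 1 collagen with an unadjusted p under 0.05 and the 1 whose groups did not overlap, lower in both DKO-labelled libraries, while none was higher in both. Over all genes tested 15.1% were lower and 14.7% higher in that sense, and unadjusted p was under 0.05 for 748 of 12247 in edgeR. The log2 change of Col5a3 was -1.34 ± 0.39 (edgeR adjusted p = 0.545), and it was -0.49 within the first run of sample numbers and -2.16 within the second. DESeq2 called it at -1.37 (adjusted p = 0.0485), the 1 collagen it called here, and limma on log2 FPKM called none. Over the 15 alternatives the adjusted p of Col5a3 ran from 0.0485 to 0.984.

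The standard errors set how small a difference could have been seen. They were 0.92, 0.79 and 1.0 on the log2 scale for Col1a1, Col1a2 and Col3a1, whose differences were 0.27, 0.21 and 0.09. For Col4a1 and Col4a2 the differences were 0.11 ± 0.42 and 0.07 ± 0.40, and for Col6a1 and Col6a2 0.05 ± 0.72 and 0.04 ± 0.72. Col23a1 was 0.74 ± 0.41 higher (edgeR adjusted p = 0.935), with -0.13 within the first run and 1.79 within the second. Col25a1 was at 0.06 ± 0.62, with -1.22 within the first run and 1.62 within the second. In the second run, which holds denervated WT replicate 2, DKO-labelled muscle was higher for Col1a1 (1.71), Col1a2 (1.42) and Col3a1 (1.75), whereas in the first run these differences were -0.04, -0.12 and -0.25. Without denervated WT replicate 1, the log2 difference was -1.73 for Col5a3 and 1.5 for Col23a1 in edgeR.

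Within each group the gap between the 2 libraries, taken without its sign, was wider for the tested collagens than for all genes tested. Its median on the log2 scale over the 25 was 0.96 in DKO-labelled, 2.0 in denervated WT and 0.42 in innervated WT muscle, beside 0.22, 0.35 and 0.16 over all genes tested. With its sign, the log2 ratio of replicate 2 to replicate 1 had a median over the 25 of -0.87 in DKO-labelled, -2.00 in denervated WT and -0.35 in innervated WT muscle. Over all genes tested, which the scaling centres near 0, it was -0.01, -0.02 and 0.03. Replicate 2 was lower for 21 of the 25 in DKO-labelled, 24 in denervated WT and 17 in innervated WT muscle, and lower in all 3 groups for 14 (56.0%), beside 19.1% of all genes tested. Each group has 1 library in each run, so a difference between runs and one between libraries cannot be told apart.

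By class, fibrillar genes had medians of -1.08 in DKO-labelled, -2.41 in denervated WT and -0.62 in innervated WT muscle. The type IV genes had -1.19, -0.72 and 0.23. In denervated WT, Col3a1 differed 10.6-fold between libraries, Col1a1 8.94-fold and Col1a2 6.46-fold, but Col4a1 1.52-fold and Col4a2 1.64-fold. The ratio of summed fibrillar to summed type IV FPKM was 5.28 and 5.07 in DKO-labelled, 7.22 and 1.8 in denervated WT, and 7.59 and 3.68 in innervated WT libraries. Among the tested members, the widest gap of each class was in denervated WT: Col3a1 at -3.41, Col4a5 at -1.90, Col14a1 at -2.66, Col6a2 at -2.40, Col15a1 at -2.32, Col25a1 at -1.75 and Col8a2 at -2.37. Below the filter, Col4a6 had -3.37 there, from 16 fragments and 1 fragment. Col23a1 and Col25a1 ran opposite ways, lower in replicate 2 of denervated WT (-1.25 and -1.75) and higher in replicate 2 of DKO-labelled muscle (0.67 and 1.12).

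**Figure D4:**
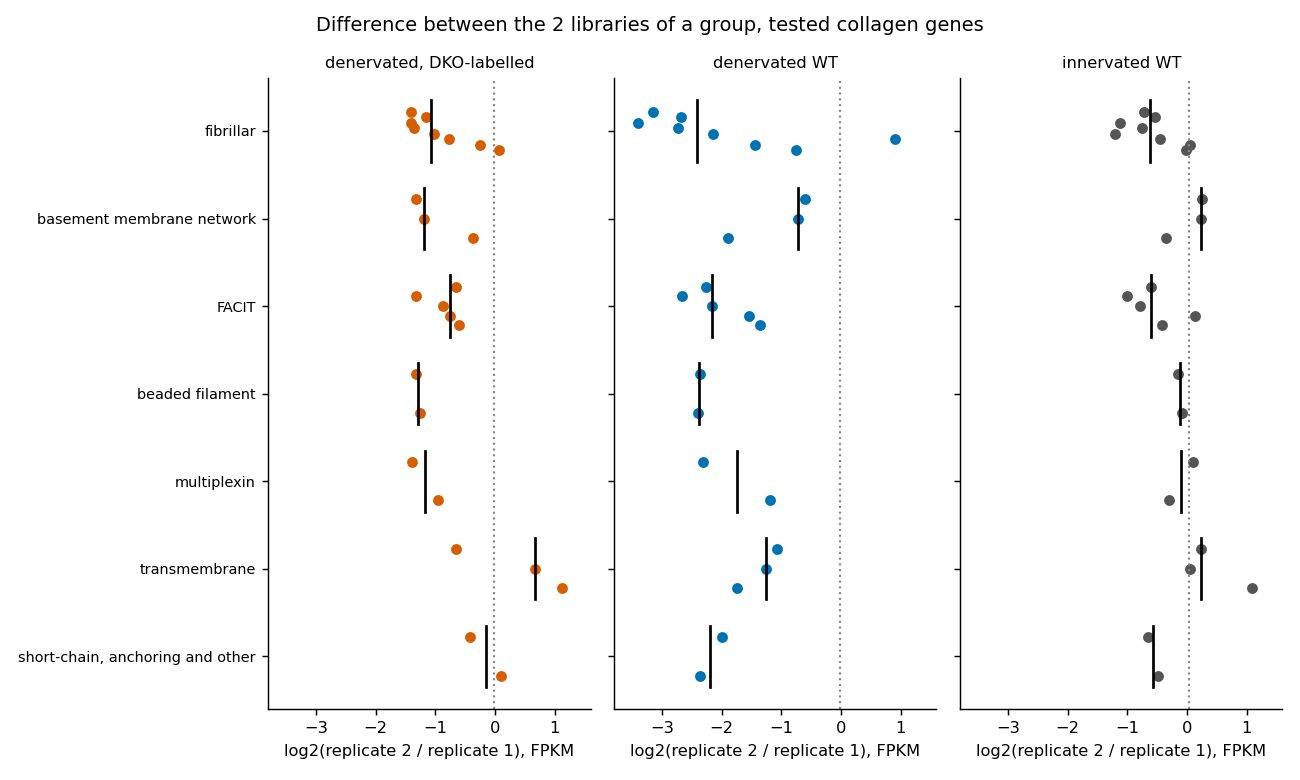
Log2 ratio of replicate 2 to replicate 1 in FPKM for each of the 25 tested collagen genes (points), by class (rows) and group (panels); black bars are class medians and the dotted line is the median of all genes tested. Fibrillar genes of denervated WT have a median of -2.41 and reach -3.41, while the type IV median there is -0.72.

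The summed levels of fibroblast, endothelial, smooth muscle and tendon markers were lower in every denervated library than in both innervated ones, and the counts of called markers differed between these lists. Over all genes tested 16.2% were called lower in DKO-labelled and 14.3% in denervated WT muscle. Fibroblast markers summed to 462 and 424 FPKM in DKO-labelled, 553 and 402 FPKM in denervated WT and 899 and 751 FPKM in innervated WT libraries, and 3 of 9 were called lower in each denervated group. All 9 were lower in replicate 2 than in replicate 1 of denervated WT, at a median log2 ratio of -1.38. Within that list the gap varied, and Dcn was at 289 and 269 FPKM. Tendon markers had a median of -1.69 there, with 6 of 7 lower. Endothelial markers had -0.29, smooth muscle and pericyte markers -0.33 and the tested collagens -2.00. Endothelial markers summed to 57.1 and 36.7, 55.7 and 46.1, and 106 and 120 FPKM in the same order, with 6 of 7 called lower in each. Smooth muscle and pericyte markers summed to 89.3 and 64.6, 87.5 and 72.3, and 170 and 175 FPKM, with 5 of 6 tested called lower in each. Tendon markers summed to 158 and 163, 159 and 117, and 234 and 174 FPKM, with Scx called higher in both, and 0 of 7 lower in DKO-labelled and 3 of 7 in denervated WT muscle. Dcn and Lum of the fibroblast list and Fmod of the tendon list also stand among the processing genes below. No defining marker of these lists was listed at 0 in every library, and their part in the collagen levels was not tested.

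Schwann cell markers summed to 41.7 and 39.8 FPKM in DKO-labelled, 42.4 and 44.9 FPKM in denervated WT and 98.1 and 100 FPKM in innervated WT libraries, with 3 and 4 of 6 called lower, beside 16.2% and 14.3% of all genes tested. Adipocyte markers summed to 18.5 and 8.17, 7.71 and 8.13, and 50 and 31.2 FPKM, with 3 and 4 of 4 called lower. Macrophage markers summed to 242 and 141, 238 and 193, and 211 and 120 FPKM, with Cd68 called higher in both and none lower. Muscle fibre markers summed to 6916 and 7688, 8145 and 7215, and 20773 and 25573 FPKM, with 5 of 6 tested called lower in each denervated group. The part of these in the collagen levels was not tested either.

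Of 21 tested genes for collagen biosynthesis and secretion, 3 rose and 2 fell in each denervated group. These counts are near or below the shares over all genes tested, which were 15.2% higher and 16.2% lower in DKO-labelled and 14.4% higher and 14.3% lower in denervated WT muscle. P4ha2 and P4hb, for subunits of prolyl 4-hydroxylase, and Tmem38b, for an endoplasmic reticulum channel, were higher. Their log2 changes were 0.67, 0.96 and 0.64 in DKO-labelled and 0.62, 0.73 and 0.82 in denervated WT muscle (edgeR adjusted p = 0.012 to 0.0455). Leprel1, a prolyl 3-hydroxylase gene, and Glt25d2, a collagen galactosyltransferase gene, fell by 1.61 and 2.55 in DKO-labelled and by 1.58 and 2.19 in denervated WT muscle. The list's median log2 change was -0.06 and -0.27, beside -1.21 and -1.24 for the tested collagens.

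Of 15 tested genes for procollagen processing and crosslinking, 3 fell in each group and none rose, and the count that fell is close to the shares of 16.2% and 14.3% over all genes tested. In DKO-labelled muscle these were the decorin gene Dcn (-0.71), Pcolce2 (-1.08) and the lysyl oxidase gene Loxl2 (-1.91), and in denervated WT the fibromodulin gene Fmod (-2.01), Pxdn (-1.51) and Dcn (-0.56). Among 6 tested receptor genes, Ddr1, a collagen-binding tyrosine kinase, and Itgb1, the beta 1 integrin subunit, rose in both, Ddr1 by 0.83 ± 0.14 and 1.05 ± 0.14 and Itgb1 by 0.62 and 0.75, and Itga1 fell by 0.88 in denervated WT. Among 8 tested collagenases, gelatinases and inhibitors, the inhibitor gene Timp1 rose by 2.28 ± 0.58 in DKO-labelled and 2.36 ± 0.58 in denervated WT muscle, Timp3 fell by 1.23 and 0.81, and none of the proteases was called. Among 16 tested TGF-beta genes, Tgfbr1, a receptor, rose in both (1.76 ± 0.23 and 1.5 ± 0.22), and Smad2 rose by 0.64 in denervated WT. Beside these lists, 15.2% of all genes tested were called higher and 16.2% lower in DKO-labelled muscle, and 14.4% and 14.3% in denervated WT. No gene of these lists was called between DKO-labelled and denervated WT muscle in edgeR.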

How the data were processed

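The members and gene lists were chosen with earlier results of these data known. Groups come from the sample titles, and replicates were numbered in accession order. Per the submitters' processing notes, the tools were Cuffdiff 2.0.2, TopHat2 2.0.3, Bowtie2 2.0.0.7, Trim Galore 0.2.1 and CASAVA 1.8.2, on build mm9. No source used here states their order, the annotation or the strand setting.

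Per the file headers, the deposited tables hold FPKM, a signal of externally scaled fragments, and raw fragments, which are estimated counts. Each entry stands 3 times in 65415 lines, and 21805 entries remained, of which those with the same symbol were summed. How the authors split fragments between overlapping or antisense genes is not stated, so such values are uncertain. The authors' library factor times the TMM effective library size differed at most 1.04-fold between libraries, so FPKM and the fit scale the libraries nearly alike, and FPKM is not a share of the library total.

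The counts were rounded to whole numbers and tested with edgeR 4.0.16 in R 4.3.3 (TMM, quasi-likelihood, two-sided), with all 6 libraries in 1 fit of group means, 12247 genes of mean FPKM of at least 0.5 and Benjamini-Hochberg adjustment over them. The fit left 3 residual degrees of freedom and a common coefficient of biological variation of 0.222. The SE of a log2 change is its size over the square root of F. The procedure was tested on simulated data, with changes placed in genes drawn from those tested. It recovered 17.8% to 22.8% of 2-fold and 86.4% to 89% of 4-fold changes over the 3 comparisons, so most 2-fold changes were missed. Depth was 25529434 to 46305449 fragments, and the libraries of a group differed beyond counting noise (chi-square per degree of freedom 77.5, 200 and 37.7 for DKO-labelled, denervated WT and innervated WT), so each counts as 1 replicate.

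Alternatives were DESeq2 1.42.0 and its size factors, limma 3.58.1 on log2(FPKM + 0.5), log2(FPKM + 1) or quantile-normalized values, no filter or one of 2 FPKM, the 4 libraries compared, the run of sample numbers as a block, and each library left out. Members of mean FPKM of at least 10 in a group, and called members, are given in every library. Of other lists up to 4 called genes a comparison are named. Gene loci are the files' mm9 coordinates, whose base of counting the files leave unstated. Promoter windows are RefSeq's on GRCm38.p6 and were found for 32 of 40 members. A result for a gene of the TGF-beta list is not reported here.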

Additional observations from a re-analysis of the deposited data

How the results depend on the processing

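Against innervated WT, collagens called higher numbered 2 in both denervated groups, and 1 (DKO-labelled) and 1 (denervated WT) with a filter of 2 FPKM, which leaves 15 collagens tested and drops Col25a1. In denervated WT, limma on log2(FPKM + 1) gave 1. Without a filter 3 were called higher in each denervated group, with the FACIT gene Col19a1 added. Over all genes, 12.3% were then called higher in DKO-labelled and 11.9% in denervated WT muscle. The count also moved with single libraries left out, and so did the share over all genes tested. Collagens called lower numbered 4 in DKO-labelled muscle, against 6 in DESeq2 and 6 in each of the limma settings. They numbered 13 without a filter (40 tested), 1 with a filter of 2 FPKM and 11 with the 4 libraries compared. In denervated WT they numbered 3, against 6 in DESeq2, 5 in limma on log2(FPKM + 0.5), 7 on log2(FPKM + 1), 6 on quantile-normalized values, 13 without a filter, 0 with a filter of 2 FPKM, and 0 to 18 with single libraries left out. Between DKO-labelled and denervated WT muscle the count called lower was 0, and 1 in DESeq2. Over all genes tested, 16.2% were called lower in DKO-labelled muscle in the main fit. That share was 20.1% in DESeq2, 18.0% to 18.7% in limma, 12.4% without a filter, 17.6% with a filter of 2 FPKM and 23.0% with the 4 libraries compared. In denervated WT it was 14.3%, and 18.4% in DESeq2, 16.4% to 16.9% in limma, 10.8% without a filter and 16.1% with 2 FPKM. Between the denervated groups DESeq2 called 0.825% lower. Apart from the filters, which change the genes tested, the cause of these moves was not tested.

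With the run of sample numbers as a replicate block, collagens called lower numbered 11 in DKO-labelled and 15 in denervated WT muscle, with 2 called higher in each, and 0 between the denervated groups. Over all genes tested the block gave 20.1% and 19.0% lower and 18.3% and 17.4% higher against innervated WT. The labels do not state this pairing, so it is not part of the design. Of 442 alternative values of 30 single-gene results, 343 kept direction and side of the threshold, 33 lost and 66 gained the call, and 0 changed direction. No setting moved the median of all genes by over 0.1 on the log2 scale. Where a library is left out, the lone library of its group is assumed to vary like the other groups. The libraries of a group differ beyond counting noise, so their spread limits most values more than depth does, except Col25a1 in innervated WT (5 and 8 fragments).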

Other observations

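Collagen-type genes whose names fall outside the rule were read too. The entry that joins Col7a1, the anchoring fibril collagen, with Mir711 was at 2.40 and 1.16 FPKM in DKO-labelled, 3.59 and 1.06 FPKM in denervated WT and 0.904 and 1.01 FPKM in innervated WT libraries, with log2 changes against innervated WT of 1.08 ± 0.58 and 1.40 ± 0.59 in edgeR (adjusted p = 0.199 and 0.115). Emid2, an older name of the type XXVI collagen gene, was below the filter at 0.125 and 0.108, 0.253 and 0.0597, and 0.594 and 0.802 FPKM in the same order. Colq, the collagen tail of acetylcholinesterase at the synapse, was at 1.12 and 1.08 FPKM in DKO-labelled, 4.06 and 3.24 FPKM in denervated WT and 9.48 and 10.5 FPKM in innervated WT libraries. Its difference between DKO-labelled and denervated WT muscle was -1.69 ± 0.20 (edgeR adjusted p = 0.0905), and the groups did not overlap.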
